A study of Mus musculus with 6 samples.

Results

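In samples labelled as hearts of mouse embryos with and without the transcription factor Sp3, 10 Zdhhc genes were followed. The Zdhhc genes encode protein palmitoyltransferases, and the 10 were Zdhhc2, Zdhhc3, Zdhhc4, Zdhhc5, Zdhhc6, Zdhhc7, Zdhhc8, Zdhhc9, Zdhhc13 and Zdhhc20. They were read by 29 probe sets, out of 45037 probe sets for 18193 genes on the array, and a further 14 Zdhhc genes were measured. The list of 10 was chosen from measured values of the same arrays: the difference between Sp3 knockout and wildtype had already placed Zdhhc2 among the probe sets that passed a test. The differences of the 10 genes between the groups are therefore given as a description, without a test of their own. The arrays came from 3 Sp3 knockout samples and 3 wildtype samples at stage E12.5, each described as total RNA from a single heart and lettered a to c. The sources used here do not give the strain, the allele that removed Sp3 or the sex of the embryos. All levels below are log2 of the deposited intensity, and a difference is the knockout mean minus the wildtype mean on that scale.

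Palmitoylation joins a fatty acid, usually palmitate, to cysteines of a protein through a thioester bond, which anchors soluble proteins in membranes and steers membrane proteins between compartments. The enzymes of this family span the membrane several times and carry a cysteine-rich domain with the motif Asp-His-His-Cys, after which they are named. Each first takes the acyl group from palmitoyl-CoA onto itself and then passes it to the substrate, and thioesterases remove it again, so that the modification can cycle. In heart muscle, palmitoylation is known for ion transporters and their regulators, for G protein subunits and for caveolar proteins.

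Sp3 itself, checked at 1 probe set, read 8.39, 8.34 and 8.61 in knockout and 9.87, 9.77 and 9.54 in wildtype arrays, a difference of -1.27 with limma adjusted p = 0.00254, which was 0.0665 without knockout a, 0.279 without the variance trend and 0.137 without the 2 arrays high in Xist. Over all probe sets, 14 of 45037, 0.0311%, passed limma at an adjusted p under 0.05 with the variance trend over level, and 0, that is 0%, passed without the trend, where 2699 had an unadjusted p under 0.05. Although labelled heart, the samples read far brighter in liver and red cell markers than in heart muscle markers. The median percentile of level was 37.4 for the measured heart muscle markers, 98.0 for liver and 98.6 for red cell markers. Of 16 markers of heart muscle, 9 were dimmer than the median probe set, while 12 of 13 measured liver markers and 10 of 11 measured red cell markers were brighter. Knockout c stood apart from its label of a single heart: Xist, the RNA of the inactive X chromosome, was at 5.76, 5.21 and 10.55 in knockout and 10.63, 5.80 and 5.35 in wildtype arrays, and the Y-linked Eif2s3y at 8.79, 8.76 and 6.64 in knockout and 1.34, 8.88 and 8.60 in wildtype arrays. Knockout c thus held transcripts of both kinds, and wildtype a high Xist with low Eif2s3y. The calls of Sp3, Zdhhc2 and Itga6 are also given without these 2 arrays. So are the differences of the 10 genes at their brightest probe sets and the count of Zdhhc probe sets without overlap. The results for cell type markers were not repeated without them. Fewer cells of a type and less RNA per cell cannot be told apart in such samples.

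Zdhhc2, an enzyme known for acting on the synaptic scaffold Dlg4, the endoplasmic reticulum protein Ckap4 and tetraspanins, was lower in the knockout arrays at all 4 of its probe sets. At the brightest, 1452654_at, it was at 4.68, 4.36 and 4.85 in knockouts a, b and c, against 6.59, 6.19 and 6.40 in wildtypes a, b and c. The means were 4.63 ± 0.25 in knockout and 6.39 ± 0.20 in wildtype arrays (SD, n = 3 each), a difference of -1.77, or 3.40-fold lower. The lowest wildtype array lay 1.34 above the highest knockout array.

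At 1453481_at the gene was at 3.52, 3.66 and 3.34 in knockouts a, b and c, against 5.36, 5.36 and 5.46 in wildtypes a, b and c, with a difference of -1.89 and a gap of 1.70 between the groups. At 1452656_at it was at 4.56, 3.17 and 4.44 in knockouts a, b and c, against 6.17, 5.48 and 6.08 in wildtypes a, b and c, with a difference of -1.86 and a gap of 0.92. Knockout b was the low array at this probe set and carried most of the knockout spread. At 1452655_at it was at 4.42, 4.52 and 4.71 in knockouts a, b and c, against 5.49, 5.23 and 4.98 in wildtypes a, b and c, with a smaller difference of -0.68 and a gap of 0.27. The sizes thus fell into a group of 3 probe sets, 3.40-fold to 3.70-fold lower, and 1 probe set at 1.61-fold lower, all in the same direction. The sources used here do not say which part of the transcript each probe set reads.

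**Figure D1:**
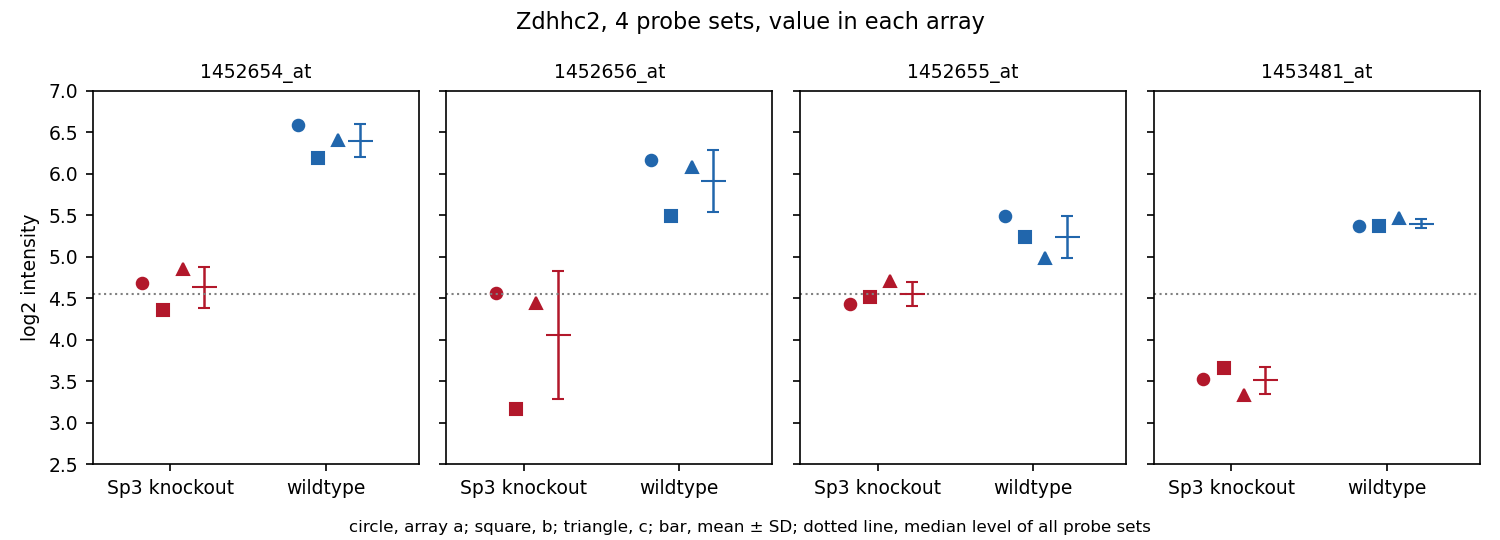
Log2 intensity of Zdhhc2 at its 4 probe sets in each of the 3 Sp3 knockout (left, red) and 3 wildtype (right, blue) arrays, with the mean ± SD beside the points and the median level of all probe sets, 4.54, as a dotted line. At each probe set the 3 knockout arrays lie below the 3 wildtype arrays, by the widest gap, 1.70, at 1453481_at.

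The 4 probe sets lay near the middle of the scale, at percentiles from 48.9 to 61.1 of all probe sets by mean level. In the level classes that hold them, the fifth to seventh of 10 from the dimmest, the median SD between arrays of a group was 0.56, 0.39 and 0.29. Of the 29 probe sets of the 10 genes, 1 passed limma with the trend, Zdhhc2 at 1452654_at, where 0.0155% of all probe sets passed in the lower direction. As this contrast chose the gene, nothing is read from that count. The probe set no longer passed without the trend, with dim probe sets left out, with Xist as a covariate, without knockout c and wildtype a together, or in any of the 6 fits without 1 array. Its difference lay between -1.87 and -1.63 in those 6 fits, with -1.87 without knockout c, and it was -1.78 without both Xist-high arrays. Adding 16 intensity units before log2, which shrinks differences of dim probe sets, gave -1.29 at this probe set and -1.14 as the median of the 4, against -1.81 without the addition.

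Markers of other cells moved with the groups as well. Of 14 leukocyte markers, 12 were lower in the knockout arrays, 6 of them without overlap between the groups, and none was at 0. Over all genes 52.5% were lower, and 9.04% were lower without overlap. The 6 were C1qa, C1qb, C1qc, Ptprc, Csf1r and Tyrobp, the complement, receptor and adaptor genes of macrophages and other leukocytes. The summed intensity of the 14 was 4274, 4239 and 2836 in knockouts a, b and c, and from 4031 to 4584 in wildtype arrays. Much of that sum is Mpo, a granule enzyme of myeloid cells, at 10.58, 10.59 and 9.90 in knockout and 9.86, 10.21 and 10.03 in wildtype arrays. Without Mpo, left out after its values were seen, the sums were 2745, 2703 and 1880 in knockout and 3104, 3403 and 3148 in wildtype arrays, so that every knockout array lay below every wildtype array. Liver markers were lower in 12 of 13, with sums from 43817 to 44376 in knockout and from 43503 to 51156 in wildtype arrays. Heart muscle markers were higher in 12 of 16, 4 of them without overlap, beside 6.02% of all genes. The heart muscle sums ran from 1155 to 1250 in knockout arrays and were 1247, 538 and 689 in wildtypes a, b and c. Red cell markers were lower in 8 of 11. The red cell sums were 42100, 46667 and 36452 in knockouts a, b and c, and from 40859 to 46908 in wildtype arrays. Endothelial markers were lower in 3 of 8, with sums from 653 to 809 in knockout and from 636 to 744 in wildtype arrays. Their part in the Zdhhc2 difference was not tested.

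The genes beside Zdhhc2 on its chromosome are given as a description. In the gene order of GRCm38.p6 the 3 protein-coding genes on either side are Msr1, Fgf20 and Micu3, and Cnot7, Vps37a and Mtmr7. With the trend, limma called 0 of their 15 probe sets, the lowest adjusted p was 0.732, and 0 reached 0.05 before adjustment. As only 0.0311% of all probe sets passed, a count of 0 among so few was likely in any case. Nothing is read from it. Their differences ran from -0.94 at an Msr1 probe set, with overlap, to a higher value at a dim Micu3 probe set, 1441599_at, where the groups did not overlap. Of the genes directly beside it, Micu3, a regulator of mitochondrial calcium uptake, was at 5.10, 4.18 and 5.82 in knockout and 4.41, 4.16 and 5.25 in wildtype arrays at its brightest probe set. Cnot7, a deadenylase of the CCR4-NOT complex, was at 9.55, 9.48 and 9.82 in knockout and 9.32, 9.32 and 9.57 in wildtype arrays at its brightest. Both had a knockout mean above the wildtype mean, with overlapping arrays. These neighbours were looked up after the Zdhhc2 values were known.

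The profiles most like that of Zdhhc2 belonged to Ebpl, Plpp2, Gimap9, Mogat2 and Atp6v1f, by Pearson r with 1452654_at over the 6 arrays among 10825 genes above the median level. Ebpl, a relative of a sterol isomerase, had r = 0.998 and was at 7.28, 7.22 and 7.34 in knockout and 7.90, 7.80 and 7.86 in wildtype arrays. Gimap9, a lymphocyte GTPase, had r = 0.994 and was at 5.12, 4.88 and 5.08 in knockout and 6.31, 6.10 and 6.35 in wildtype arrays. Plpp2, a phospholipid phosphatase, Mogat2, a monoacylglycerol acyltransferase, and Atp6v1f, a subunit of the vacuolar proton pump, had r from 0.991 to 0.997. With 6 arrays in 2 separate groups, r is set largely by the split between the groups, and 242 genes, 2.24%, had r above 0.9. None of the 5 passed limma with the trend, with adjusted p from 0.155 to 0.4.

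The other 9 genes had small differences at most of their probe sets. Of their 25 probe sets 11 were lower and 14 higher in the knockout arrays, with a median difference of 0.01, beside 0.02 over all probe sets. None of the 25 passed, and none had an unadjusted p under 0.05. At the 20 that lay above the median level of all probe sets the differences ran from -0.23 to 0.58, and at the 5 dimmer ones from -0.83 to 1.26. Groups did not overlap at 2 of the 25, and with the 4 of Zdhhc2 that made 5 probe sets lower and 1 higher of 29, where 6.89% of all probe sets were lower and 6.15% higher without overlap. With knockout c and wildtype a left out, and 2 arrays in each group, 12 of the 29 did not overlap in either direction, that is 41.4%, where 32.7% of all probe sets did not. These 12 include the 4 of Zdhhc2, the gene this contrast chose.

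**Figure D2:**
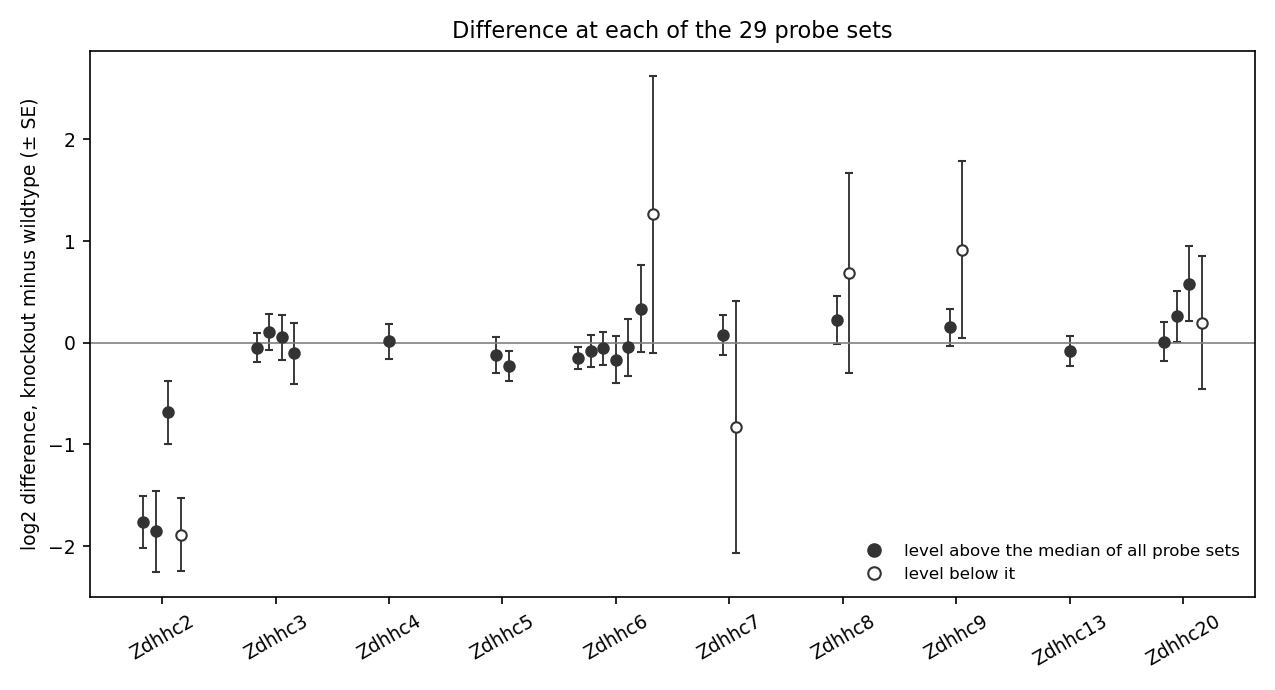
Log2 difference, knockout minus wildtype, ± SE at each of the 29 probe sets, grouped by gene and ordered within a gene from the brightest probe set. The 4 Zdhhc2 probe sets lie between -1.89 and -0.68, and the filled points of the other genes, those above the median level, between -0.23 and 0.58.

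Zdhhc3 and Zdhhc7, closely related enzymes of the Golgi with a broad range of substrates, had overlapping groups at all of their probe sets. Zdhhc3 at 1423646_at was at 7.43, 7.43 and 7.69 in knockouts a, b and c, against 7.50, 7.51 and 7.68 in wildtypes a, b and c. Its 4 probe sets, all above the median level, had differences of -0.05, 0.10, 0.05 and -0.10. Both directions occurred. Zdhhc7 at 1416545_at was at 7.65, 7.74 and 7.01 in knockouts a, b and c, against 7.46, 7.49 and 7.20 in wildtypes a, b and c, with knockout c the lowest array. Its second probe set, 1449786_at, was dim and ranged from 0.70 to 3.91 in knockout and from 0.45 to 4.12 in wildtype arrays, with a difference of -0.83 smaller than the SD of either group.

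Zdhhc6, an enzyme of the endoplasmic reticulum that works with the selenoprotein Selenok, was read by 7 probe sets. The brightest, 1439057_x_at, was at 9.84, 9.70 and 9.49 in knockouts a, b and c, against 9.85, 9.77 and 9.88 in wildtypes a, b and c, a difference of -0.15 in which wildtype b lay between the knockout arrays. By the maker's naming, an x in the name marks a probe set whose probes may also match other transcripts, and 2 of the 7 are of that kind. The others above the median level had differences of -0.08, -0.06, -0.17, -0.04 and 0.34. The seventh, 1445707_at, lay in the dimmest class, at 3.06, -0.37 and 3.02 in knockouts a, b and c, against -0.81, 3.46 and -0.72 in wildtypes a, b and c. Its difference of 1.26 was smaller than the SD of either group, 1.97 in knockout and 2.44 in wildtype arrays.

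Zdhhc5 and Zdhhc8 are close relatives that act at the plasma membrane, and Zdhhc5 is known in heart muscle for modifying the sodium pump regulator Fxyd1. Zdhhc5 at 1426310_at was at 7.37, 7.52 and 7.02 in knockouts a, b and c, against 7.48, 7.59 and 7.20 in wildtypes a, b and c, with overlapping groups and a difference of -0.12. At 1426311_s_at it was at 7.07, 7.31 and 7.11 in knockouts a, b and c, against 7.35, 7.39 and 7.41 in wildtypes a, b and c, a difference of -0.23 or 1.17-fold lower. The groups did not overlap there, by a gap of only 0.05. Zdhhc8 at 1451476_at was at 6.75, 7.05 and 6.36 in knockouts a, b and c, against 6.82, 6.57 and 6.09 in wildtypes a, b and c, so its direction, higher by 0.23, was opposite and within the spread. The second Zdhhc8 probe set, 1436468_at, was dim and overlapped, with a difference of 0.69.

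Zdhhc20, an enzyme of the plasma membrane known to modify the growth factor receptor Egfr and the antiviral protein Ifitm3, had 4 probe sets with a higher knockout mean. At the brightest, 1451437_at, it was at 7.66, 7.09 and 7.90 in knockouts a, b and c, against 7.60, 7.56 and 7.45 in wildtypes a, b and c, so that the wildtype arrays all lay between the knockout arrays and the difference was 0.01. At 1434236_at it was at 5.56, 5.53 and 5.93 in knockouts a, b and c, against 5.49, 5.51 and 5.24 in wildtypes a, b and c. These groups did not overlap, by a gap of 0.02, and they overlapped after quantile normalization or median centring. The differences at 1431218_at and 1459724_at were 0.58 and 0.20, with overlap at both.

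Zdhhc9, an X-linked enzyme that works with Golga7 on Ras proteins, was at 6.88, 6.84 and 6.60 in knockouts a, b and c, against 6.73, 6.43 and 6.70 in wildtypes a, b and c, at its brightest probe set. Its difference of 0.15 there lay within the spread. The Xist-high arrays knockout c and wildtype a, at 6.60 and 6.73, lay inside the range of the others at this probe set. At the dim second probe set of Zdhhc9, 1458142_at, the groups overlapped with a difference of 0.92. There knockout c was the highest of all arrays and wildtype a the lowest, so both lay outside the range of the others. Zdhhc13, an enzyme with ankyrin repeats whose loss in mice gives hair and skin defects, was at 7.94, 7.68 and 7.96 in knockouts a, b and c, against 7.84, 7.85 and 8.15 in wildtypes a, b and c. Zdhhc4, reported to help bring the fatty acid transporter Cd36 to the cell surface, was at 7.35, 7.24 and 6.96 in knockouts a, b and c, against 7.02, 7.15 and 7.35 in wildtypes a, b and c. Both were read by 1 probe set, and their differences of -0.08 and 0.01 were smaller than the SD of either group.

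**Figure D3:**
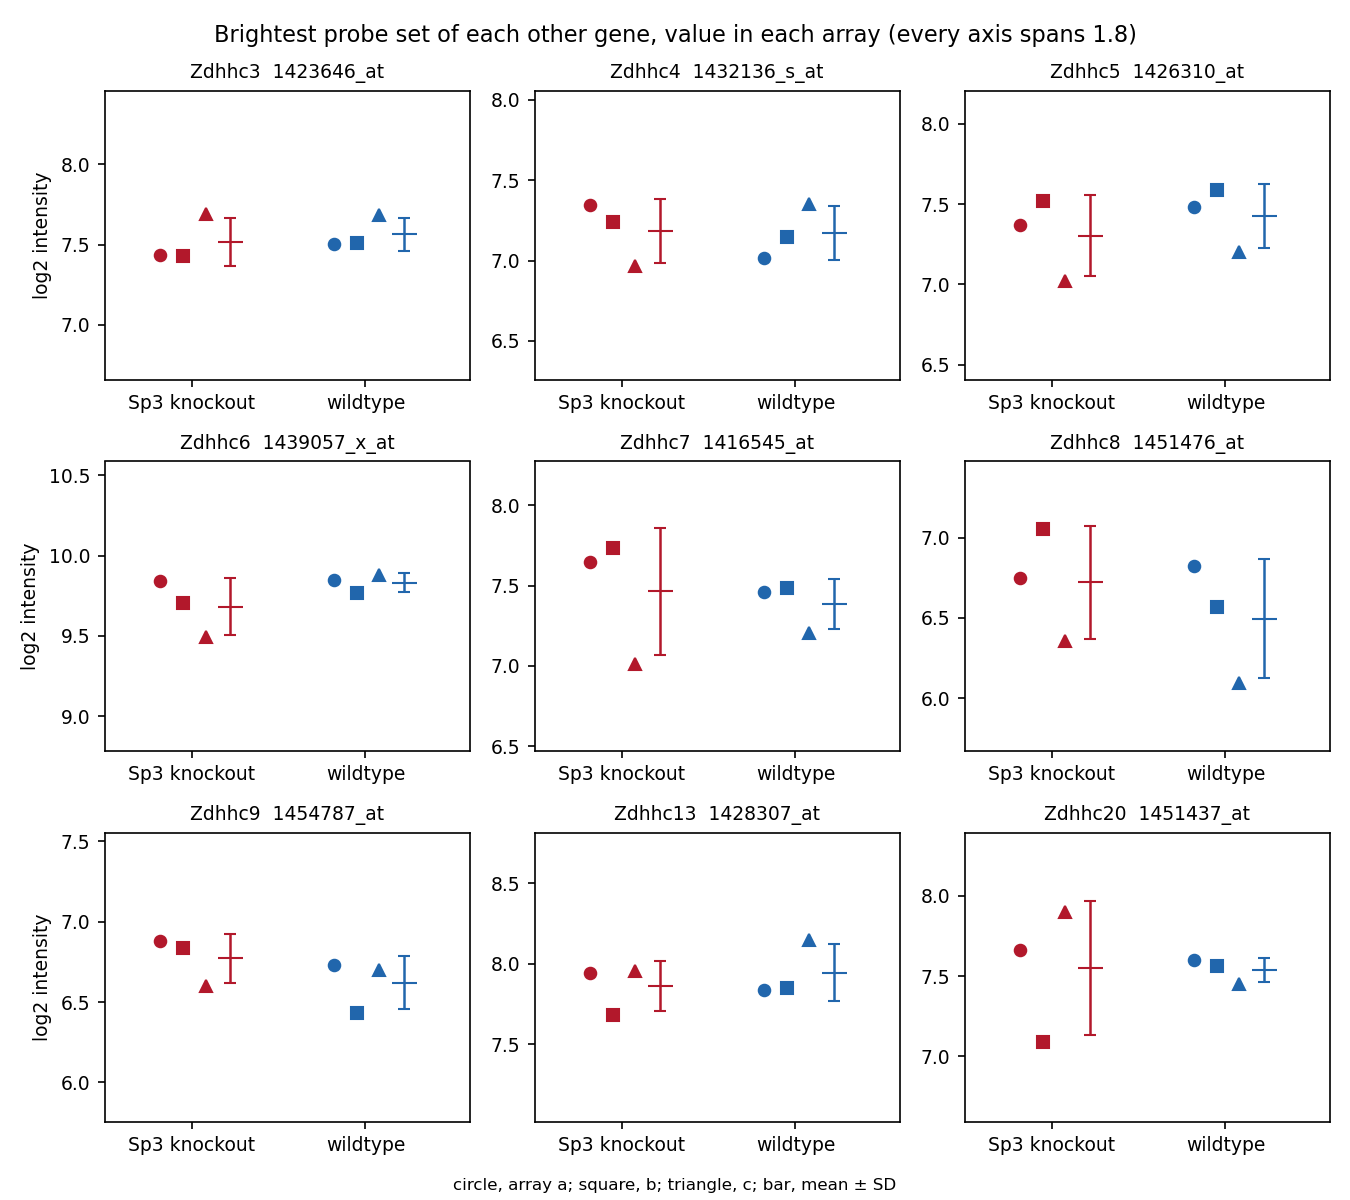
Log2 intensity of the brightest probe set of each of the other 9 genes in each Sp3 knockout (left, red) and wildtype (right, blue) array, with the mean ± SD beside the points; every vertical axis spans 1.8. The groups overlap in all 9 panels, and array c is the lowest of its group in both groups for Zdhhc5, Zdhhc7 and Zdhhc8.

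Among the genes that had several probe sets, 5 of 8 had all of them in 1 direction. These were Zdhhc2 and Zdhhc5, lower, and Zdhhc8, Zdhhc9 and Zdhhc20, higher. At their brightest probe sets Zdhhc5 and Zdhhc20 changed sign in some alternatives. Without both Xist-high arrays the difference was 0.05 for Zdhhc5 and -0.13 for Zdhhc20, and with median centring it was -0.06 for Zdhhc20. Zdhhc3, Zdhhc6 and Zdhhc7 had probe sets in both directions. Zdhhc5, Zdhhc8 and Zdhhc9 had only 2 probe sets each. The dim second probe sets of Zdhhc8 and Zdhhc9 had differences of 0.69 and 0.92 with SE of 0.98 and 0.87. The same share over all genes was not counted, so nothing is read from the 5 of 8. Agreement in direction went with differences that separated the groups at every probe set for Zdhhc2, at 1 of 2 for Zdhhc5, at 1 of 4 for Zdhhc20, and at none for Zdhhc8 and Zdhhc9.

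Sp3 binds GC boxes, and the starts of the genes differ in how many of these letters they hold. The motif searched was GGGCGG, on both strands, so that CCGCCC is the same motif on the other strand, in the 250 bases before each start that RefSeq's GRCm38.p6 promoter table lists. The table had 1 start for each of 7 of the 10 genes, the other 3 being Zdhhc2, Zdhhc4 and Zdhhc13, and 5 of these 7 held the motif, beside 32.7% of all 32851 starts in windows of the same length. Zdhhc20 held 7 matches, a number reached by 0.411% of all starts, Zdhhc8 held 3, Zdhhc5 and Zdhhc9 2 each, Zdhhc3 1, and Zdhhc6 and Zdhhc7 none. The windows of Zdhhc20, with the most matches, of Zdhhc5, whose probe sets were both lower, and of Zdhhc6, with none, are shown 5′ to 3′ on the strand of the gene, with matches in capitals.
Zdhhc20, chr14:57890337-57890586, minus strand: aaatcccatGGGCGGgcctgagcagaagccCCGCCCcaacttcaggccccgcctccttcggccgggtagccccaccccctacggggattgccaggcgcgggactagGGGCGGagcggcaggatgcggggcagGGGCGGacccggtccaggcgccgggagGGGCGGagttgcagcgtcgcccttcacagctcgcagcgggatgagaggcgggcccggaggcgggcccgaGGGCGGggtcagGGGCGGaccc
Zdhhc5, chr2:84715165-84715414, minus strand: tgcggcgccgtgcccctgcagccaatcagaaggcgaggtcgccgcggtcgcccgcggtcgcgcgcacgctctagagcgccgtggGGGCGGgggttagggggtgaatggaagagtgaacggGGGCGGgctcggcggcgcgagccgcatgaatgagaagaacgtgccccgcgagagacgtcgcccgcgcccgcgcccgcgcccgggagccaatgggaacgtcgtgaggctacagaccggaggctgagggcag
Zdhhc6, chr19:55316037-55316286, minus strand: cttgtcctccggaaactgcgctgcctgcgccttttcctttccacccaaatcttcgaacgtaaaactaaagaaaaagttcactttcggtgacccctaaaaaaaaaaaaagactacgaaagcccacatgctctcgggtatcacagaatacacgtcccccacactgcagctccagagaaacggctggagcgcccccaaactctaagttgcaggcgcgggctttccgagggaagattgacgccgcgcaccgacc
Zdhhc20, with the densest window, had differences from 0.01 to 0.58 and Zdhhc6, without a match, from -0.17 to 0.34 at its probe sets above the median level. Both sets of differences lay within the overlap of the groups apart from 1 probe set of Zdhhc20. A match of letters is not a binding site, and binding was not measured.

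The remaining 14 Zdhhc genes were read by 27 probe sets, of which 0 passed limma with the trend or without it, and 3 had an unadjusted p under 0.05 with the trend. With 1 probe set per gene, 7 were lower and 7 higher, with a median difference of 0.02, beside -0.02 over all 18193 genes. Zdhhc14 was at 8.13, 8.39 and 7.82 in knockout and 8.31, 8.60 and 8.42 in wildtype arrays, with a difference of -0.33 and limma adjusted p = 0.705. Zdhhc15, a relative of Zdhhc2, differed by 0.38 with adjusted p = 0.751, the other way from Zdhhc2. Zdhhc21, the gene mutated in the depilated mouse, differed by 0.17 with adjusted p = 0.792. Zdhhc11 had a larger difference of 1.78, but it was dim, at 3.55, 2.99 and 3.49 in knockout and 3.43, -0.27 and 1.54 in wildtype arrays, and the groups overlapped.

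Of 9 genes for the thioesterases that remove palmitate, 6 were lower and 3 higher, with a median difference of -0.12. With limma and the trend 0 of their 21 probe sets passed, and 1 had an unadjusted p under 0.05. Abhd17a, a depalmitoylase of Ras proteins, was at 8.31, 8.38 and 8.43 in knockout and 8.52, 8.56 and 8.81 in wildtype arrays, lower in every knockout array (limma adjusted p = 0.71). Lypla1, a cytosolic acyl protein thioesterase, differed by -0.23 with adjusted p = 0.733. Ppt2, a lysosomal thioesterase, differed by 0.29 the other way, with adjusted p = 0.729, and Abhd10, a mitochondrial depalmitoylase, by -0.20 with adjusted p = 0.788.

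The accessory subunits and the supply of palmitoyl-CoA held 3 and 10 measured genes. With limma and the trend 0 of their 5 and 0 of their 27 probe sets passed, and 0 and 1 had an unadjusted p under 0.05. Selenok, the partner of Zdhhc6, was at 9.63, 9.63 and 9.53 in knockout and 9.81, 9.71 and 9.82 in wildtype arrays, a difference of -0.18 without overlap (limma adjusted p = 0.722). Golga7, the partner of Zdhhc9, differed by -0.09 with adjusted p = 0.853. Of the supply genes 5 were lower and 5 higher, with a median difference near 0. Acsl5, an acyl-CoA synthetase, was at 10.21, 10.29 and 10.25 in knockout and 10.39, 10.31 and 10.56 in wildtype arrays, and Acly, the ATP citrate lyase, at 10.51, 10.51 and 10.35 in knockout and 10.61, 10.68 and 10.55 in wildtype arrays. Neither gene's groups overlapped, with differences of -0.17 and -0.16 and limma adjusted p of 0.729 and 0.732.

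Of 37 measured substrates, 18 were lower and 19 higher, with a median difference of 0.03, and 1 of their 110 probe sets passed, while 13 had an unadjusted p under 0.05. Several of the 13 read the same gene, among them those of Ncam1 and Canx. The share of all probe sets with an unadjusted p under 0.05 with the trend was not counted. Nothing is therefore read from such counts, here or in the lists above. The probe set that passed was 1422444_at for Itga6, an integrin chain that binds laminin, whose result was known when the list was made. Itga6 read 7.09, 7.17 and 7.22 in knockout and 8.31, 8.18 and 8.44 in wildtype arrays, a difference of -1.14 with limma adjusted p = 0.00992, while the brighter Itga6 probe set, 1422445_at, differed by -0.06 with overlap. The Itga6 call was lost without knockout a, without knockout b, without wildtype a, without the trend, and without both Xist-high arrays. Cav1, the coat protein of caveolae, read 7.42, 7.16 and 7.11 in knockout and 6.80, 6.29 and 6.50 in wildtype arrays, without overlap (difference 0.70, limma adjusted p = 0.481). Snap23, a membrane fusion protein, differed by 0.47 with adjusted p = 0.487, and Ncam1, a neural cell adhesion molecule, by 0.79 with adjusted p = 0.634. Dlg4, a known substrate of Zdhhc2, was dim, at 4.67, 5.22 and 4.38 in knockout and 3.13, 3.52 and 3.74 in wildtype arrays. Its difference was 1.29, with adjusted p = 0.633. Ckap4 and the tetraspanins Cd9, Cd151 and Cd81 went the other way at their brightest probe sets. The difference was -0.18 for Cd9, without overlap. It was -0.23 for Cd151, -0.13 for Ckap4 and -0.01 for Cd81, with overlap. Their limma adjusted p ran from 0.754 to 0.981. A dimmer Cd151 probe set differed by -0.92 without overlap (limma adjusted p = 0.622). With 7 of 37 genes not overlapping, 5 higher and 2 lower, beside 6.02% of all genes higher and 9.04% lower, 0 of the 37 passed at its brightest probe set.

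**Figure D4:**
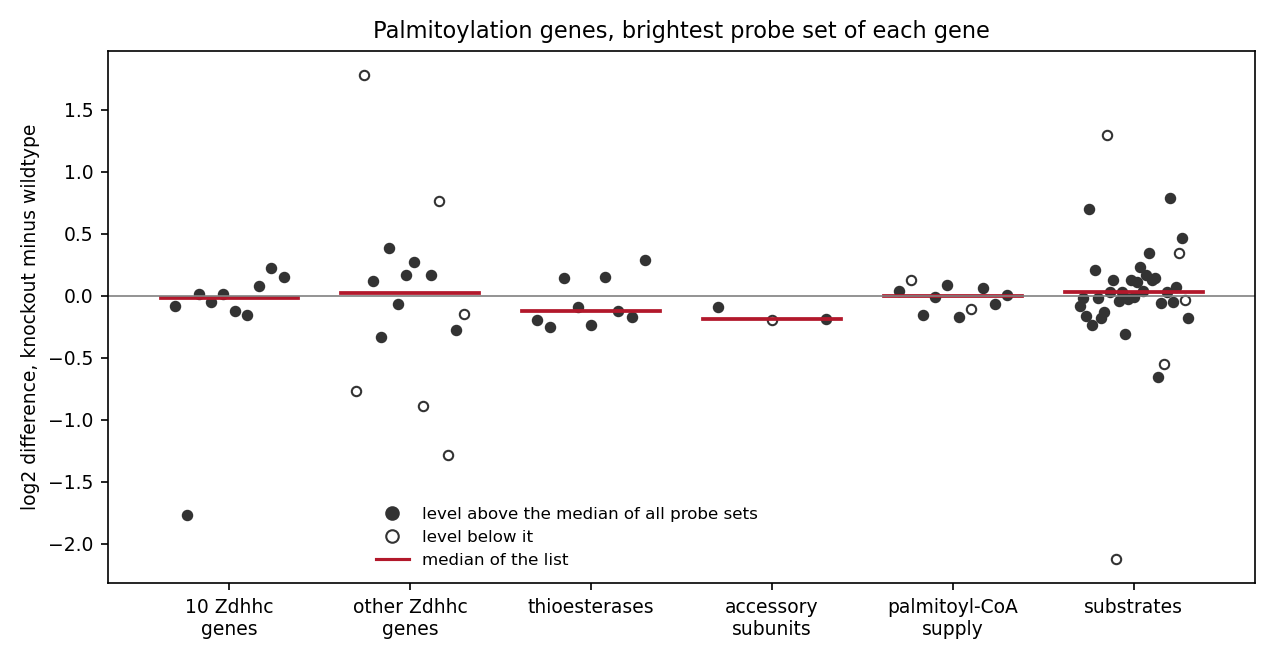
Log2 difference, knockout minus wildtype, of each gene at its brightest probe set for the 10 Zdhhc genes, the other Zdhhc genes and 4 lists of palmitoylation genes; open circles are genes dimmer than the median probe set and red lines the list medians. Zdhhc2, at -1.77, is the lone low point of the first column, and the medians lie between -0.18 and 0.03.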

How the data were processed

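Intensities per probe set were deposited on a linear scale, between 0.0562 and 12897. GCOS and RMA stand without role or version in the submitters' processing notes, so which of them made the values is unknown here. Here log2 was taken with no other scaling, since array medians lay between 22.5 and 26.7. The 64 control probe sets were left out. By annotation 34945 probe sets had 1 gene, 932 had several and 9160 had none. In R 4.3.3, limma 3.58.1 (lmFit, eBayes with trend and robust) was fitted to all 45037 probe sets with group as the only term, two-sided, Benjamini-Hochberg adjusted p under 0.05, and tested on simulated data. A gene was represented by its brightest probe set. Each array counted as 1 replicate, per the labels, so a p-value reflects only how far these samples vary, and having few arrays limits precision. The members, gene lists and variance trend were chosen with earlier results of these data known. Named genes were all members, Sp3, up to 4 genes of smallest p per palmitoylation list and the 5 most like Zdhhc2. Zdhhc2 neighbours and the other listed substrates named for Zdhhc2 were added later. Alternatives were the fit without the trend, quantile normalization, median centring, 16 units added, dim probe sets left out, array weights, the letter as a block, Xist as a covariate and each array left out. Leaving out both Xist-high arrays was added after seeing the data. No genome build is named for the arrays, and promoter sequences are RefSeq's, of GRCm38.p6.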

Additional observations from a re-analysis of the deposited data

How the results depend on the processing

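The 14 probe sets that passed over the whole array became 0 without the trend, 25 with array weights, 258 with the letter as a replicate block, 0 without the 2 Xist-high arrays, and 3 to 24 with 1 array left out. The 1 Zdhhc probe set that passed became 0 without the trend, with dim probe sets left out, with Xist as a covariate and without the Xist-high arrays, 2 with the block, and 0 in each of the 6 fits without 1 array. It passed after quantile normalization, median centring, array weights and the added 16 units. The fits without an array have fewer samples, and otherwise the cause was not tested. The 6 Zdhhc probe sets without overlap became 12 without the Xist-high arrays and 7 to 10 without 1 array. With fewer arrays groups overlap less often by construction: the share without overlap with all arrays, without the Xist-high arrays and without 1 array was 20.7%, 41.4% and 24.1% to 34.5% of the Zdhhc probe sets, beside 13%, 32.7% and 21.2% to 28.2% of all probe sets. The Zdhhc shares include in each setting the 4 probe sets of Zdhhc2, the gene this contrast chose, so no excess of the family is read from them. Of the other 25 probe sets, 2 did not overlap with all arrays. The median Zdhhc2 difference of -1.81 was -1.14 with 16 units added, which shrinks dim values by construction, and kept its direction in each alternative run. The 1 probe set of the palmitoylation cycle and substrates became 0 without the trend and without the Xist-high arrays, 3 with the block, and 0 to 1 without 1 array. The differences at the 4 Zdhhc2 probe sets and at the brightest of each of the other 9 genes were recomputed 181 times in all, and 4 moved by more than the SD between arrays, all of Zdhhc2 with 16 units added. Without both Xist-high arrays, the differences of Zdhhc3, Zdhhc4, Zdhhc5, Zdhhc6 and Zdhhc7 at their brightest probe sets were -0.16, 0.05, 0.05, -0.05 and 0.34. Those of Zdhhc8, Zdhhc9, Zdhhc13 and Zdhhc20 were 0.57, 0.29, -0.18 and -0.13. The sign changed there for Zdhhc5 and Zdhhc20. Sp3 passed in 12 of 15 alternatives, and its adjusted p was 0.279 without the trend, 0.137 without the Xist-high arrays and 0.0665 without knockout a. Same-letter arrays deviated together with r of 0.01, 0.31 and 0.44 for a, b and c. Between letters b and c, r was -0.36 and -0.38, and knockout a correlated best with wildtype b, at 0.13. These values do not decide whether the letters mark pairs. The main fit did not take them as pairs, and the counts with the letter as a block are given above. Values near the dim end vary most, with a median SD of 1.27 in the dimmest of 10 classes and 0.125 in the brightest.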
